A study of Mus musculus with 18 samples.

Results

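The 7 genes described here encode the Id inhibitors (Id1, Id2, Id3 and Id4) and the E proteins (Tcf3, Tcf12 and Tcf4) of the mouse. They were studied through the accessible regions that name one of these genes, either because the region overlaps the gene or because an exon of the gene lies within 5 kb to its left or right. These were 44 of the 65983 regions measured by ATAC-seq, an assay in which a transposase inserts sequencing adapters into open DNA. The cells were mouse CD4 T cells, activated as naive cells through CD3 and CD28 and grown under Th1-polarising conditions with IL2, IL12 and anti-IL4. The 18 samples fall into 6 groups of 3. At 24 h these were Id3 knockout (KO) and wild-type (WT) cells labelled Th1, and at 72 h KO and WT cells labelled Tcmp and KO and WT cells labelled Teff, labels that the submitters do not spell out. The sources used here do not say how Id3 was deleted, nor whether replicates were separate mice or cultures.

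E proteins are basic helix-loop-helix transcription factors that bind E-box DNA as dimers and direct lymphocyte development. Id proteins carry the helix-loop-helix but lack the basic DNA-binding part, so that they pair with E proteins and keep them from DNA. In T cells, Id2 is known for its role in effector differentiation, Id3 for memory T cell formation, and Tcf3 (E2A) and Tcf12 (HEB) for thymocyte development.

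One set of regions served all comparisons: positions, widths, window numbers and gene names were identical in all 6 contrasts of the table. A region therefore shows that the place passed into the table, not in which genotype or time it was open. Each region is made of overlapping windows of 300 bp, the width of a region with 1 window, and widths rise in steps of 50 bp. Over the table a region was 550 bp wide in the median (quartiles 500 and 650, range 300 to 1100) and held 6 windows (quartiles 5 and 8, range 1 to 16). The width and the window number are nearly one measure, since 97.8% of regions had no gap between windows. The fold changes and p-values are not read as results for these genes because they follow the order of the table. In 65983 of 65983 regions of every contrast the best window was the first window. The p-value of the best window was taken as the region p-value divided by its number of windows. This quotient fell at 0 of the steps between successive regions with a p-value under 1. In the contrast of KO with WT Th1 cells at 24 h, 4 of the 5 regions of Tcf3 had an adjusted p under 0.05 in the authors' deposited table, against 12.7% of all regions. None of the other 39 regions did. Tcf3, on chromosome 10, is the first of the 7 genes in that table, in rows 6547 to 6551, and the last row under that threshold is 14853, so these marks are not read as a change at Tcf3. In the 5 contrasts of the 72 h samples, 0, 1, 5, 9 and 12 member regions were under it in the authors' deposited table, beside 2.32%, 9.52%, 18.7%, 22.9% and 44.0% of all regions. They followed the same order, with Tcf3 alone where there were 1 or 5, Id2 and Id4 added where there were 9, and Tcf4 added where there were 12.

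The 7 genes ran from a single narrow region to a place among the genes with the most regions. Id4 had 1 region, Id1, Id2 and Id3 had 3 each, Tcf3 had 5, Tcf4 had 12 and Tcf12 had 17. The median over the 26755 genes named anywhere in the table was 2 (quartiles 1 and 3), and 37.4% of genes had a single region. As mid-rank percentiles among these genes, Id4 stood at 18.7, the other three Id genes at 70.2, Tcf3 at 88.0, Tcf4 at 97.9 and Tcf12 at 99.1. The low ranks depend on the way of counting. Id1 stood at 35.1 when only overlaps with a gene counted. Id4 stood at 35.1 in that count, at 1.29 with at least 3 windows, and at 38.0 among RefSeq protein-coding genes with absent genes at 0. As many regions as Tcf12 or more were found at 273 genes (1.02%), and as many as Tcf4 or more at 616 genes (2.30%). The long E protein genes were thus far above the Id genes in number, whereas Tcf3 lay between them. Gene length was not set against these numbers, since no annotation of the build of the files was used here. The regions of Tcf12 span 226450 bp and those of Tcf4 span 305700 bp, against 5950 bp for Id1, 6950 bp for Id2, 8100 bp for Id3 and 29700 bp for Tcf3.

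**Figure D1:**
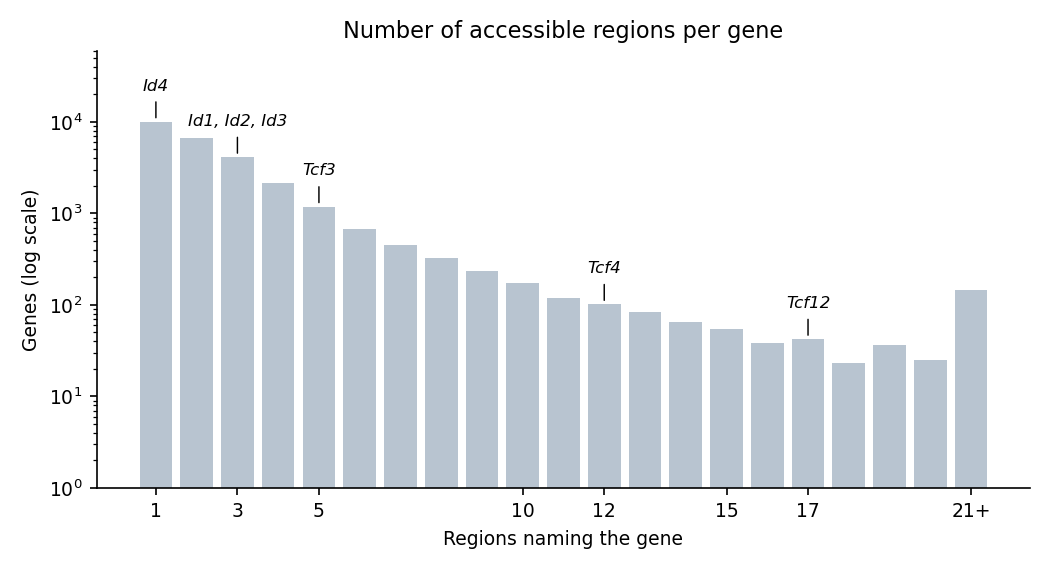
Number of genes (log scale) by the number of accessible regions that name them, over all 26755 genes, with genes of 21 or more regions in the last bar. The labels mark the bars that hold the members: Id4 at 1 region, Id1, Id2 and Id3 at 3, Tcf3 at 5, Tcf4 at 12 and Tcf12 at 17.

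The class of the regions differed between the Id genes and the E protein genes Tcf12 and Tcf4. Tcf3, like the Id genes, had no region counted as intronic, but regions inside Tcf3 were coded both promoter and intron and counted as promoter. A region was counted once per gene, as promoter where the deposited code of the gene held P, otherwise as exon (E), intron (I) or flanking (named only by distance). The sources used here do not say how far from a start the code P reaches. The regions of an Id gene span at most 8100 bp, which leaves little room for an intron region beyond the promoter code. How far gene length and the order of the classes set the differences in class was not tested. Of the 44 member regions, 13 also named another gene. Of the 10 regions of the Id genes, 6 were promoter and 4 were flanking, and none was intronic. Of the 34 regions of the E protein genes, 22 were intronic (64.7%), 9 promoter, 2 flanking and 1 exonic. Over all genes, 37.0% of the 76685 pairs of region and gene were promoter, 34.2% intron, 21.7% flanking and 7.16% exon. Each of the 7 members had a promoter region, as did 76.0% of all genes. Regions counted as intron were present at Tcf12 and Tcf4 only among the 7, and at 32.0% of all genes. With every code of a region counted, the intron regions of the 7 genes rose from 22 to 24, the added ones being at Tcf3.

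**Figure D2:**
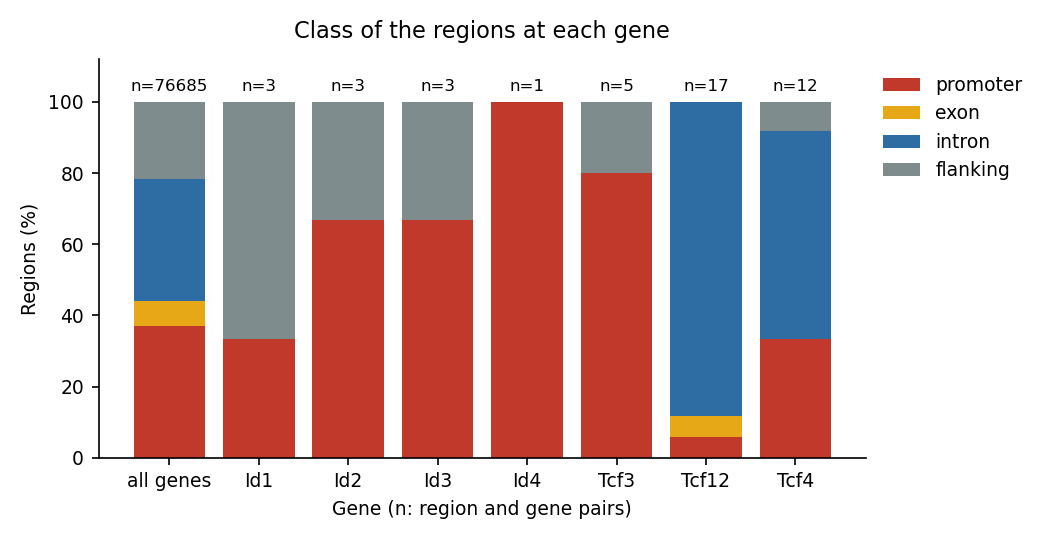
Share of regions (percent) in each class for all genes and for each member, with the number of pairs of region and gene above the bar. Regions counted as intron make up 88.2% at Tcf12 and 58.3% at Tcf4. None is counted at the Id genes and Tcf3, where promoter and flanking regions fill the bars. Regions of Tcf3 coded promoter and intron count as promoter.

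Id3, the deleted gene, lies on the plus strand of chromosome 4. Its first region (135867501 to 135868100, GRCm39) was coded promoter, was 600 bp wide with 7 windows, and ended 2708 bp before the nearest exon. That region also named a gene with only an Ensembl identifier, by distance alone. The second (135870851 to 135871350) overlapped promoter and exon, with 5 windows. The distances place the edge of the first exon at 135870808, so that this region covers bases 43 to 542 after it. The third (135874851 to 135875600) lay 1785 bp beyond the last exon and held 10 windows. At 750 bp it was the widest of the 3 and stood at percentile 93.5 among flanking regions, whereas the region over the first exon stood at 19.7 among promoter regions. The sources used here do not say whether the deletion removed any of these places. Such exon edges were the same from all flanking regions of a gene in 99.9% of the 1513 cases where 2 or more regions lay on one side.

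Id2, an Id gene expressed in effector lymphocytes, lies on the minus strand of chromosome 12. Its region over promoter and exon (25145901 to 25146550) was 650 bp wide with 8 windows and lay 54 bp from another exon of the gene. A second promoter region (25148601 to 25149200, 7 windows) began 1462 bp before the most upstream exon edge. The flanking region (25142251 to 25142950) had 8 windows and lay 848 bp beyond the 3′ end. The median width at Id2, 650 bp, stood at percentile 78.2 among all genes, against 57.5 for Id1 and Id3. Id2 and Id3 thus had the same layout, with 2 promoter regions and 1 region behind the gene.

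Id1, known as a target of BMP signalling, lies on the plus strand of chromosome 2. Its only promoter region (152578001 to 152578400) overlapped an exon but was narrow, with 400 bp and 3 windows, at percentile 7.81 among promoter regions. Both other regions lay behind the gene, at 1871 bp (152581201 to 152581800, 7 windows) and 3921 bp (152583251 to 152583950, 9 windows) from its last exon. The latter region also named a gene with only an Ensembl identifier, by distance alone. The regions behind Id1 were thus wider than the region at its start. Id4, best known from the nervous system and from germ cells, lies on the plus strand of chromosome 13 and had only a promoter region (48414301 to 48414650). It was 350 bp wide with 2 windows, at percentile 4.37 among promoter regions, and ended 54 bp before the first exon. That region also lay within introns of A330033J07Rik and of a gene without a symbol, both on the opposite strand.

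The start of Tcf3, the gene of the E2A proteins E12 and E47, held the widest region of the 7 genes. This region (chromosome 10, 80269351 to 80270200, minus strand) was 850 bp wide with 12 windows, at percentile 97.9 among promoter regions. It spans the most upstream exon edge, from 719 bp before it to 130 bp after it. A region 2020 bp before that edge (80271501 to 80272050) held 6 windows. Inside the gene, 2 regions coded as promoter and intron (80267651 to 80268100 and 80259301 to 80259800) held 4 and 5 windows. A last region (80242351 to 80242900, 6 windows) lay 2448 bp beyond the gene and overlapped promoter and exon of Uqcr11, so it cannot be assigned to Tcf3 alone. With 4 promoter regions Tcf3 stood at percentile 98.8 for that class, as did Tcf4.

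Promoter sequences of the RefSeq table, from 250 bases before to 50 after an annotated start on build GRCm38.p6, were found for 5 of the 7 genes, namely Id2, Id3, Id4, Tcf3 and Tcf12, and not for Id1 and Tcf4. Those of Id3 (chr4:136143572-136143871, plus strand), Id2 (chr12:25096043-25096342, minus strand), Id4 (chr13:48260866-48261165, plus strand) and Tcf3 (chr10:80433586-80433885, minus strand) are shown because each of these genes had a promoter region. That of Tcf12 (chr9:72111770-72112069, minus strand) is its most upstream start in that table. The positions belong to another build than the regions and are not to be set against them. Each sequence runs 5′ to 3′ along the gene, and capitals mark E-boxes, the E protein motif CANNTG.
Id3: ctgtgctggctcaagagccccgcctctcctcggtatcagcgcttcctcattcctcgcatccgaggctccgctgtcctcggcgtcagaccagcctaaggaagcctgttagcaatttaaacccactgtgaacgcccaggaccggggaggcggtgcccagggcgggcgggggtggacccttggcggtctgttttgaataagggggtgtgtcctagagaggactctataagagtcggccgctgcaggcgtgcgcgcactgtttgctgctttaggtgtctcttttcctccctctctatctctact
Id2: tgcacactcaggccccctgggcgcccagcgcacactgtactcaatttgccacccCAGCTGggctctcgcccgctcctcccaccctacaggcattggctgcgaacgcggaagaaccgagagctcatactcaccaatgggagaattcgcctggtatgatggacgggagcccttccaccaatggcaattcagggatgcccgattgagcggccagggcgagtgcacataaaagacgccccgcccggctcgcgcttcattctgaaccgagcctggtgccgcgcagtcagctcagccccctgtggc
Id4: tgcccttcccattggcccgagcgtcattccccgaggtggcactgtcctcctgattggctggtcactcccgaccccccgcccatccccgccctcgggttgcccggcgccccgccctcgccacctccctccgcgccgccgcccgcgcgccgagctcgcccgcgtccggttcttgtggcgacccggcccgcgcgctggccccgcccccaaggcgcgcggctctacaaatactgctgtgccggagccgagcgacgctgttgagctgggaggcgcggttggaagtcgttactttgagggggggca
Tcf3: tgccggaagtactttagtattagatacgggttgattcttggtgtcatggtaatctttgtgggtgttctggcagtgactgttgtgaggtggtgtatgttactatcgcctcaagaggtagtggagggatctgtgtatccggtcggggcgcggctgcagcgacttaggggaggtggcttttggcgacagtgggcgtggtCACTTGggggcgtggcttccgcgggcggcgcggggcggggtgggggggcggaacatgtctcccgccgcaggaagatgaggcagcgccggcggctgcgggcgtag
Tcf12: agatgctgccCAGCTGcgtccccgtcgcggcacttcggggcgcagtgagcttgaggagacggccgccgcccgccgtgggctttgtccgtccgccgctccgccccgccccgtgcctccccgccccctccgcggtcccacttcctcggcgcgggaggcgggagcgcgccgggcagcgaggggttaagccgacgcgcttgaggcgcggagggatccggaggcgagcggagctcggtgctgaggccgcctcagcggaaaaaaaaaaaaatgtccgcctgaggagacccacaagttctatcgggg

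The promoter sequences of Id3 and Id4 held 0 E-boxes within these 300 bases. Id2 held 1, CAGCTG, at 196 bases before the start, and Tcf3 held 1, CACTTG, at 54 bases before it. The sequence of Tcf12 shown above held 1, CAGCTG, at 240 bases before the start, and 2 further Tcf12 starts in the table held 2 and 1. Of these 7 sequences 5 held CANNTG (71.4%), near the 72.3% of all 32851 promoter sequences of the table, searched the same way on both strands. CAGCTG, which is one form of CANNTG, was in 2 of 7, against 16.3% of all, and CACCTG was in 0 of 7, against 20.2%. GGCGCC, a GC-rich element known from BMP-responsive promoters, was found once each at Id2 and Id4, against 11.9% of all. TGANTCA, the AP-1 motif, was found at 1 Tcf12 start (7.81% of all), where it overlaps an E-box, and CCGGAA, an ETS core, at Tcf3 (14.9% of all). TTCNNNGAA (8.30%), GCGGGGGCG (2.91%) and TGTGGT (16.8%) were in none of the 7. These are matches of letters in a short window and not measured sites.

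Tcf12, the gene of HEB, which is known to have a second, internal start giving a shorter form called HEBAlt, was covered mainly inside its introns. It lies on the minus strand of chromosome 9, so that higher positions are further upstream. Of its 17 regions 15 were intronic, 1 was exonic (71849701 to 71850150, 4 windows) and 1 was promoter (71803401 to 71803950). The promoter region also overlapped an exon, with 4 windows over 550 bp, where 6 would fit without a gap. Upstream of it lay 15 more regions, 14 of them intronic, reaching 204050 bp further. The 6 most upstream regions lay within 24.7 kb (71983301 to 72008000), with 8, 7, 5, 7, 1 and 2 windows in order of position, and none of them was coded promoter. Since these places are intronic, the gene begins further upstream, and no region of the table named that start. Depth and the filter on windows are unknown, so the start is not shown to be closed. The most upstream overlapping region was a promoter region at the other 6 members, at 87.1% of the 22887 genes with such a region on a single chromosome, and at 681 of the 809 genes (84.2%) with 10 or more of them. The 2 upstream starts of Tcf12 in the RefSeq promoter table were rich in GC, with 71.7% and 75.7%, and held 41 and 45 CpG, while the third, internal one had 36.3% and 0 CpG. The medians over all promoter sequences were 52.7% and 7 CpG.

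The intron regions of Tcf12 were mostly far from its exons. For 12 of the 15 no exon of the gene lay within 5 kb, and the same held for 5 of the 7 intron regions of Tcf4, against 43.7% of the 26224 intron pairs of all genes. They were not wide, with a median of 500 bp and 5 windows at both genes, against 550 bp and 6 windows for intron regions of all genes. The lowest were 2 regions of Tcf12 with a single window (71939651 to 71939950 and 72005501 to 72005800), and the highest had 8. Genes given only by an Ensembl identifier also claimed 4 of the 17 regions of Tcf12 as promoter.

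Tcf4, the gene of E2-2, which is best known as the lineage factor of plasmacytoid dendritic cells, had regions at its upstream end and along its introns. On chromosome 18 its plus strand starts at about 69476427 by the distances, and 3 promoter regions that overlap exons (69477101 to 69477800, 69479201 to 69479700 and 69481051 to 69481700) followed within 5273 bp, with 9, 5 and 8 windows. A flanking region (69470951 to 69471550, 7 windows) lay 4877 bp before the first exon. Another promoter region (69726101 to 69726700, 7 windows) began 249674 bp after the first exon edge, among 7 intron regions with 2 to 6 windows. The upstream end of Tcf4 thus held several regions in these T cell samples, but none of them reached the first exon edge. The nearest began 674 bp after it.

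**Figure D3:**
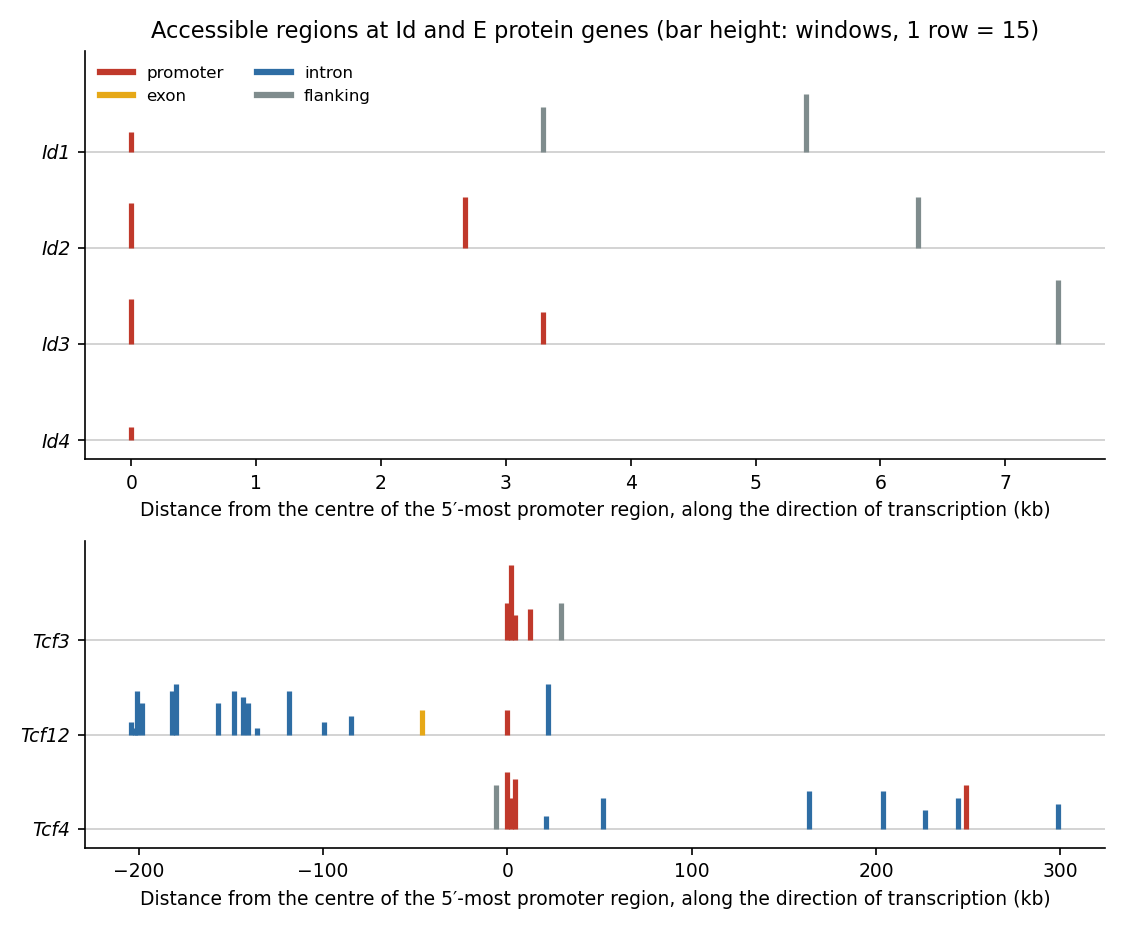
Accessible regions at each member by distance (kb) from the centre of the 5′-most promoter region, with transcription running to the right; bar height is the number of windows (1 row is 15 windows) and colour the class. The Id genes (top) carry 1 to 3 regions within at most 8100 bp, whereas Tcf12 has 15 regions at negative distances, upstream of its only promoter region, and the regions of Tcf4 reach over 305700 bp.

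The rule above takes in only regions within 5 kb of an exon or inside a gene, and 18.8% of all regions name no gene. The surroundings were therefore counted within 50 kb of the centre of the 5′-most promoter region of each gene, over 20320 genes with one. Id3 had 19 other regions in this distance, at percentile 99.4, where the median of all genes was 6. Of these, 11 named no gene, at percentile 99.9, while 62.5% of genes had none of that kind and 34 genes, Id3 included, had as many or more. The 11 regions lay at 10.95 to 44.55 kb before the promoter region (9 regions) and at 19.85 and 23.25 kb after it, with 3 to 12 windows and a median of 7. The one with 12 windows (135850301 to 135851150) was 850 bp wide. The 6 regions that named another gene named E2f2, the gene of a cell cycle factor that lies 3′ of Id3. Of these 34 genes, 14 have only an Ensembl identifier and 7 carry names of predicted genes, Rik clones or pseudogenes, among them the highest, Gm13982 with 16. The other 12, besides Id3, were Ifng with 15, Ccr7, Il21 and Rgs1 with 14, Vdac1 with 13, Adamtsl4, Ddit4 and Trat1 with 12, and Fos, Gadd45g, Runx3 and Tcf7 with 11, named here after their values were seen. Genes that lie side by side can count the same regions. The count within 50 kb was itself set up with the table known.

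The other members had fewer unnamed neighbours, but the counts are not on equal terms. A region inside a gene always names it, so a stretch inside a gene cannot hold unnamed regions, here and among all genes. The 50 kb upstream of the Tcf12 region and the 50 kb downstream of the Tcf4 region lie inside these genes. The region of Id4 lies in introns of other genes. Id2 had 6 other regions within 50 kb, of which 3 named no gene (percentile 91.5), all of them before its start. Id1 had 10, of which 1 named no gene and 7 named H13, Cox4i2, Bcl2l1 or another gene. Tcf3 also had 10, of which 2 named no gene. Tcf4 had 5, 1 of them unnamed. Tcf12, whose only promoter region is internal, had 2, which named Tcf12 itself, and Id4 had 1, at percentile 7.34 for all regions.

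**Figure D4:**
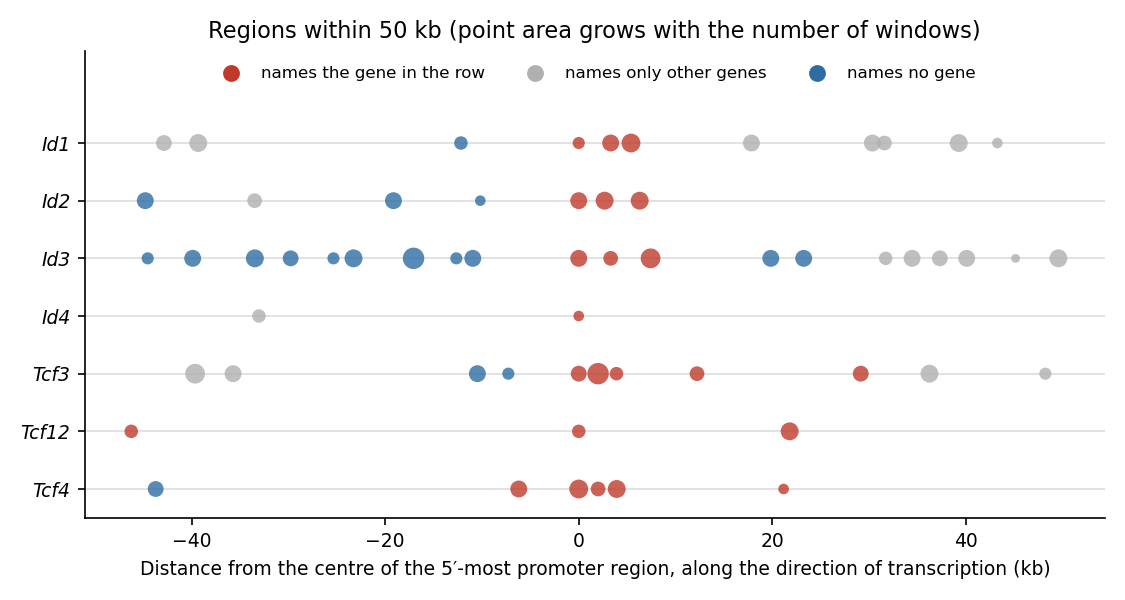
Regions within 50 kb of the 5′-most promoter region of each member, by distance (kb) along the direction of transcription; colour shows whether a region names the member, only other genes, or no gene, and point area grows with the number of windows. The row of Id3 holds 9 unnamed regions before and 2 after its promoter region, against 0 to 3 unnamed regions in the other rows. Regions inside a long gene, as at Tcf12 and Tcf4, always name it and cannot be unnamed.

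The Id and E protein genes were then set beside other lists of genes, for which 70.9% of RefSeq protein-coding symbols with a region, 61.7% with a promoter region and a median of 2 regions are the background. The class II factors, tissue-specific partners of E proteins such as the myogenic and neurogenic factors, had a region at 24 of 47 genes and a promoter region at 12, with a median of 1 and at most 4 regions. The highest of these was Lyl1, a factor of early blood progenitors, with 4 regions, followed by Tal1, Ascl5 and Neurog2 with 3 each. The 49 other factors of the fold, which mostly do not use E proteins as partners, had a region at 47 genes and a promoter region at 39, with a median of 3. The highest were Npas2 with 13, Mxi1 with 10, and Hif1a and Mlxipl with 9 each, and Tfec and Helt had none. The medians were 3 for the 4 Id genes and 12 for the 3 E protein genes. No gene of either list of helix-loop-helix genes reached the 17 regions of Tcf12.

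**Figure D5:**
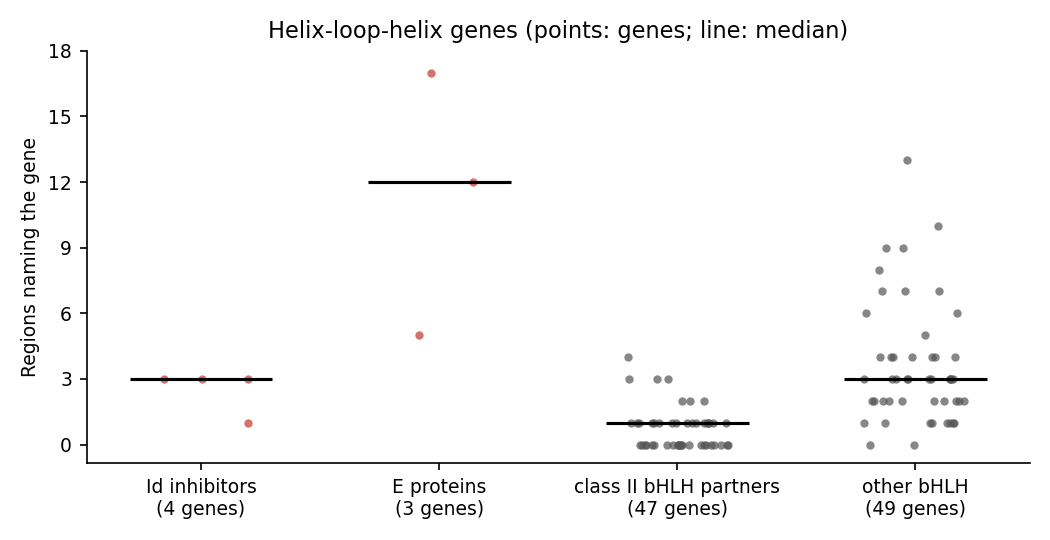
Number of regions naming each helix-loop-helix gene, 1 point per gene, with the median as a line. The Id genes lie at 1 to 3 regions and the E protein genes at 5, 12 and 17, and the class II partners reach at most 4 and the other factors at most 13.

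Cofactors of E proteins had regions at 10 of 11 genes, with a median of 4; the highest were the acetyltransferase gene Kat2b with 11, Cbfa2t3 with 6 and Ldb1 with 5, and Runx1t1 had none. T cell genes known to be controlled by E or Id proteins had regions at 19 of 19 and a promoter region at 14, with a median of 6. The highest were Lef1 with 21, Bcl11b with 19 and Cxcr5 with 10, and those without a region coded promoter were Lef1, Ptcra, Rag1, Rag2 and Notch3. As a check of the cell type, 15 of 15 CD4 T cell markers had a region and 14 had a promoter region, Tbx21 being the exception. Markers of other cells had a region at 4 of 6 genes for B cells, 3 of 5 for myeloid cells, 3 of 3 for erythroid cells and 1 of 3 for epithelial cells. Beside the 70.9% over RefSeq symbols, having a region thus separates these lists little, and the erythroid list is as complete as the CD4 list. The median number of regions was 6 for the CD4 list, against 2.5 for B cells, 1 for myeloid, 2 for erythroid and 0 for epithelial markers. The ranges overlapped, as Ebf1 of the B cell list had 10 regions, Itgam of the myeloid list 6, and Pax5 and Cd79a 4 each, whereas the T cell genes Lat had 2 and Cd3d, Cd3e and Cd5 3 each. No region named Cd79b, Ms4a1, Lyz2, Csf1r, Krt5 or Krt14. A region at a gene is no measure of its expression.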

How the data were processed

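ATAC-seq was run on 18 samples in 6 groups of 3. The submitters' processing notes list Trim Galore, BWA, Picard, edgeR and build GRCm39, giving no role or version. The deposited table holds 6 contrasts and no value per sample, so depth is unknown and no value has a replicate error; 0 columns of per-sample values were left unused. Per the file headers it gives counts of windows per region, a p-value and adjusted p-value, a log2 fold change and region positions and widths in bp. The sources used here do not state the filter, normalization or merging of windows. The deposited p-values were checked for their order, and regions with an adjusted p under 0.05 were counted. Neither these nor the fold changes were read as changes at a gene.

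Regions were read from 1 contrast with Python 3.11.15 and pandas 2.3.3, and gene names were matched exactly, as all 7 members were. Percentiles are mid-ranks. Counting was tried on simulated data. Of the genes in the table, 19192 have a RefSeq symbol (GRCm38.p6), and Bmal1 was matched to its older symbol Arntl. No test was run. Members and gene lists were chosen with earlier results of these data known. Named genes are the 7 members, their neighbours in shared regions, and the 3 genes with most regions of each list with its ties, with the genes of a list without a region where these are 5 or fewer. Genes of the marker lists, genes within 50 kb of a member, genes with as many unnamed regions as Id3 and genes of a list without a promoter region were named outside this rule, after their values were seen.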

Additional observations from a re-analysis of the deposited data

How the results depend on the processing

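Of the 44 regions, 38 remained when only overlaps with a gene counted, 43 when regions under 1000 bp apart were joined and 38 with at least 3 windows. The median percentile of the 7 genes, 70.2, lay between 65.4 and 73.1 under these settings and was 71.0 among 21900 RefSeq protein-coding genes with absent genes at 0. Id1 keeps 1 region by overlap alone and Id4 none with at least 3 windows. Counting every class of a region raised the exon regions from 1 to 10, because most promoter regions also overlap an exon. The intron regions rose from 22 to 24, with the added ones at Tcf3. The median percentile by width was 33.3 from the median width and 76.3 from the summed bp, which grows with the number of regions. The ratio of members to all promoter sequences for E-boxes was 0.988 by share and 0.616 by matches per kb. Settings chosen after seeing the data put Id3 at percentile 99.5 within 20 kb and within 100 kb for unnamed regions, and at 92.6 and 97.3 for all regions. No paired analysis was possible because per-sample values are absent from the file analysed; leaving out replicates, other normalizations, filters on low values and regions per gene length were not run. Depth is unknown, so a place without a region is not shown to be closed.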
